A study of Mus musculus with 6 samples.

Results

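This section describes 6 genes used as monocyte markers, Ccr2, Csf1r, Cx3cr1, Lgals3, F13a1 and Ms4a6c, in bone marrow neutrophils of mice. They were taken by symbol from a table of 51789 genes, and all 6 passed the filter on low counts that left 10397 genes for testing. The samples were 3 labelled knockout (KO) and 3 labelled wild type (WT) for Snph, which encodes syntaphilin, an anchor of mitochondria on microtubules. Neutrophils had been isolated on beads against the neutrophil antigen Ly6G, to a stated purity above 95%. The labels do not give strain, age, sex, how the knockout was made or whether each sample came from a separate mouse. P-values therefore reflect the spread among these libraries alone, and that spread may be technical.

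Monocytes and neutrophils arise from shared progenitors in the bone marrow. Classical monocytes, which carry much Ly6C, need the chemokine receptor CCR2 to leave the marrow, whereas non-classical monocytes carry much of the fractalkine receptor CX3CR1. CSF1R, the receptor for CSF1 and IL-34, maintains monocytes and tissue macrophages. Lgals3 encodes galectin-3, a lectin that binds beta-galactosides, and F13a1 the A subunit of coagulation factor XIII, a transglutaminase that cross-links fibrin. Ms4a6c belongs to the Ms4a family of membrane proteins with several spans, to which the B cell antigen CD20 also belongs. None of these genes is exclusive to monocytes: macrophages also make Csf1r and Lgals3, and dendritic cells and macrophages can make Cx3cr1. Which cells of the preparations, neutrophils included, gave the counts of each gene was not tested.

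The libraries sample the 3′ ends of polyadenylated RNA, so a count stands for a tag and does not grow with gene length. Total counts were 7179569 to 9165218 in the KO-labelled and 7018388 to 9664381 in the WT-labelled libraries, so that 1 count was worth 0.103 to 0.142 counts per 1e6 counts (CPM). The targeted gene went against the labels: Snph had 5, 2 and 8 counts in KO 1, 2 and 3, against 0 counts in each WT-labelled library. Which part of Snph was deleted is not stated, so these few tags do not settle the labels, and every direction below takes the labels as they stand. Ly6g itself was at 1120 to 1275 CPM in the KO-labelled and 932 to 1123 CPM in the WT-labelled libraries. On the first principal component, which held 28.6% of the variance, the KO-labelled libraries ran from -14.1 to -2.45 and the WT-labelled ones from 4.95 to 12.0.

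The 6 genes fell into an abundant pair and a sparse group of 4. Lgals3 averaged 1160 CPM over the 6 libraries and ranked 69 among the 10397 tested genes by mean level, and Csf1r averaged 183 CPM and ranked 685. Ms4a6c, Cx3cr1, F13a1 and Ccr2 averaged 4.91, 3.41, 2.27 and 1.84 CPM and ranked 7491, 8261, 9107 and 9538. Lgals3, Csf1r and Ms4a6c followed each other in that order at the top in all 6 libraries. Cx3cr1 came next in 5 libraries, and in KO 3 F13a1 stood above it. F13a1 was lowest in WT 3, Ccr2 was lowest in KO 1, 2 and 3 and WT 2, and in WT 1 the pair tied at 15 counts each. The libraries of F13a1 and Ccr2 overlapped in both groups. All levels here are CPM scaled by TMM factors, and they compare tags, whose capture can also differ between genes. A sum over bulk RNA cannot tell fewer cells of a type from less RNA per cell.

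**Figure D1:**
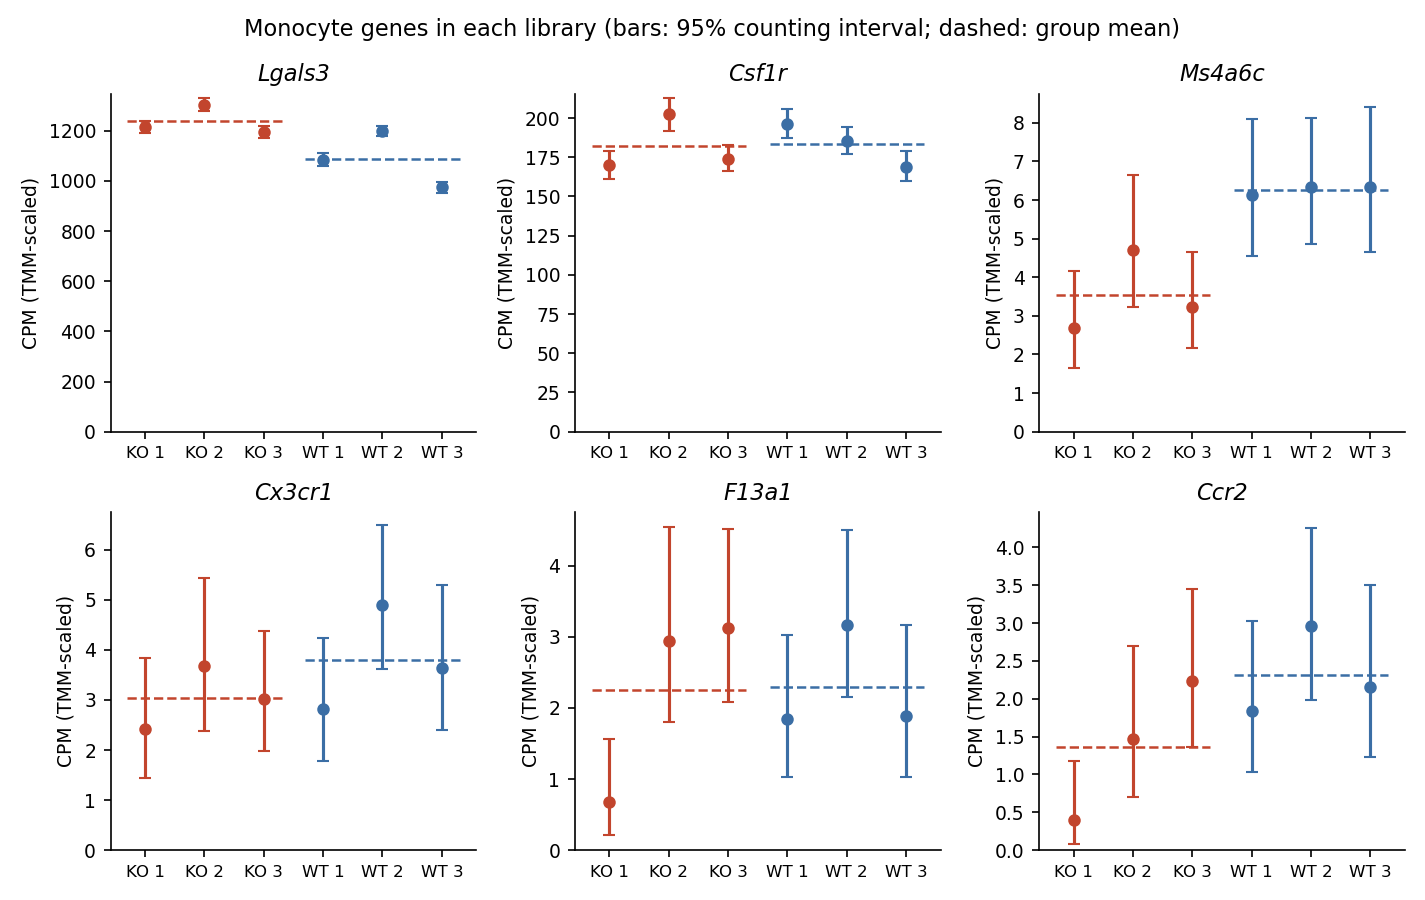
Level of each gene in CPM (linear axis from 0) in the 3 KO-labelled libraries, left in red, and the 3 WT-labelled libraries, right in blue; bars are exact 95% Poisson intervals of the count and dashed lines are group means. Ms4a6c lies at 2.70 to 4.71 CPM in the KO-labelled and 6.13 to 6.34 CPM in the WT-labelled libraries, while the other 5 genes overlap between groups.

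None of the 6 genes passed the test between KO-labelled and WT-labelled libraries at an adjusted p of 0.05 (edgeR's quasi-likelihood test, Benjamini-Hochberg adjustment over all 10397 genes). Over all tested genes the share called was 1.03%, made up of 0.789% that were lower in the KO-labelled libraries and 0.24% that were higher. DESeq2 and limma-voom called 0 of the 6 as well. At an unadjusted p under 0.05, 2 of the 6 were counted, Ms4a6c and Lgals3, against 11.4% of all tested genes. The log2 fold change was below 0 for 5 of the 6 and ran from -0.83 to 0.19, with a median of -0.18, beside a median of 0.006 over all tested genes. The groups did not overlap for 1 of the 6, Ms4a6c, beside 16.8% of all tested genes.

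**Figure D2:**
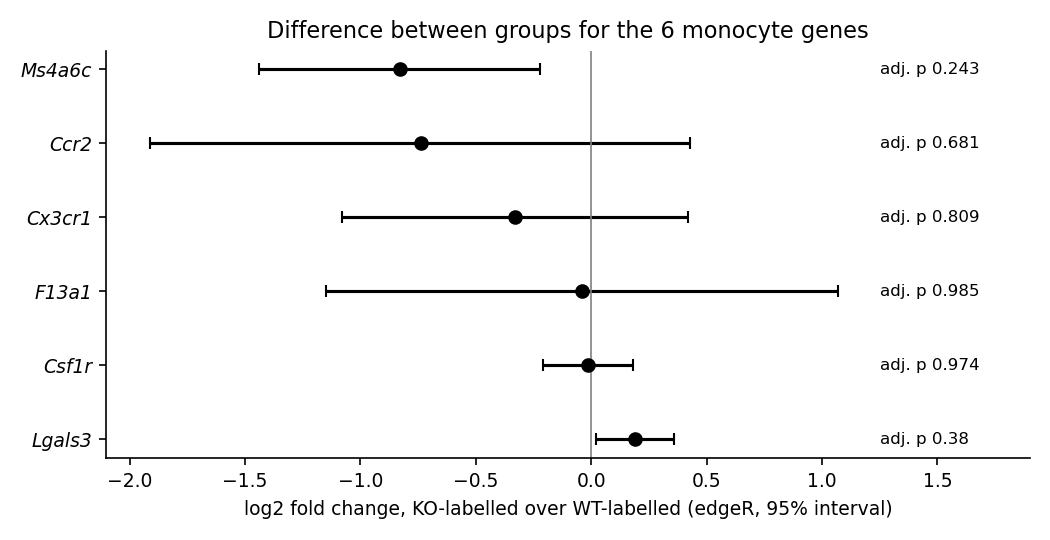
Log2 fold change of KO-labelled over WT-labelled libraries for each gene, with its 95% interval from edgeR's quasi-likelihood fit and its adjusted p. The intervals of Csf1r (-0.21 to 0.18) and Lgals3 (0.02 to 0.36) are narrow, and that of Ccr2 (-1.91 to 0.43) is the widest of the 6.

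Ccr2 (ENSMUSG00000049103, chromosome 9, 124101950 to 124113557, plus strand, GRCm38), the receptor for CCL2 and related monocyte chemokines, was the sparsest of the 6 genes. It had 3, 10 and 20 counts in KO 1, 2 and 3, against 15, 29 and 16 counts in WT 1, 2 and 3. In CPM this was 0.404, 1.47 and 2.23 in the KO-labelled libraries, against 1.84, 2.96 and 2.16 in the WT-labelled ones. KO 1 was the lowest library, with an exact Poisson 95% interval of 0.0834 to 1.18 CPM that lay below the lower bounds in WT 2 and WT 3 (1.98 and 1.23 CPM) but not that in WT 1 (1.03 CPM). KO 3 lay within the range of the WT-labelled libraries. The means were 1.37 ± 0.92 CPM in the KO-labelled and 2.32 ± 0.58 CPM in the WT-labelled libraries (SD, n = 3 each). The log2 fold change was -0.74 (SE 0.55, 95% interval -1.91 to 0.43, adjusted p = 0.681 by edgeR). Without KO 1 it was -0.32. The SD between KO-labelled libraries was 2.12 times the SD that counting alone gives at this depth, and that between WT-labelled libraries 1.09 times.

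F13a1 (ENSMUSG00000039109, chromosome 13, 36867178 to 37050244, minus strand, GRCm38) showed the same low library. It had 5, 20 and 28 counts in KO 1, 2 and 3, against 15, 31 and 14 counts in WT 1, 2 and 3. In CPM this was 0.674, 2.94 and 3.12 in the KO-labelled libraries, against 1.84, 3.17 and 1.89 in the WT-labelled ones. KO 1 was the lowest of all 6, and KO 2 and KO 3 lay above WT 1 and WT 3. The means were 2.25 ± 1.37 CPM in the KO-labelled and 2.30 ± 0.75 CPM in the WT-labelled libraries (SD, n = 3 each; log2 fold change -0.04, SE 0.52, 95% interval -1.15 to 1.07, adjusted p = 0.985 by edgeR). Without KO 1 the log2 fold change was 0.39, and without WT 2 it was 0.28, so its sign depended on single libraries. At 53 counts over the KO-labelled and 60 over the WT-labelled libraries, the interval is wide in both directions.

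Cx3cr1 (ENSMUSG00000052336, chromosome 9, 119901616 to 120069879, minus strand, GRCm38) had 18, 25 and 27 counts in KO 1, 2 and 3, against 23, 48 and 27 counts in WT 1, 2 and 3. In CPM it stood at 2.43, 3.68 and 3.01 in the KO-labelled libraries, against 2.82, 4.91 and 3.64 in the WT-labelled ones. KO 1 was again the lowest library and WT 2 the highest, and the groups overlapped. The log2 fold change was -0.33 (SE 0.35, 95% interval -1.08 to 0.42, adjusted p = 0.809 by edgeR). The SD between the KO-labelled libraries was 0.993 times that expected from counting alone, and that between the WT-labelled libraries 1.55 times.

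Ms4a6c (ENSMUSG00000079419, chromosome 19, 11469366 to 11482192, plus strand, GRCm38) was the one gene of the 6 whose libraries separated by group. It had 20, 32 and 29 counts in KO 1, 2 and 3, against 50, 62 and 47 counts in WT 1, 2 and 3. In CPM this was 2.70, 4.71 and 3.24 in the KO-labelled libraries, against 6.13, 6.34 and 6.33 in the WT-labelled ones. Every KO-labelled library lay below every WT-labelled one, as it did for 9.32% of all tested genes in this direction. The means were 3.55 ± 1.04 CPM in the KO-labelled and 6.27 ± 0.12 CPM in the WT-labelled libraries (SD, n = 3 each; log2 fold change -0.83, SE 0.28, 95% interval -1.44 to -0.22). The adjusted p was 0.243 by edgeR, and it was between 0.137 and 0.478 in all 14 alternatives, with a log2 fold change from -1.07 to -0.67. The spread of the WT-labelled libraries, 0.134 times that of counting alone, is smaller than their counting error of 0.865 CPM, so that SD does not carry the counting error of each value.

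Reads of Ms4a6c can be shared with a relative. Of the distinct windows of 50 bases in the last 300 bases of its annotated transcripts, 6.18% also occurred in transcripts of Ms4a6b, and no such window of the other 5 genes occurred in a transcript of another gene. Ms4a6b had 28, 13 and 12 counts in KO 1, 2 and 3, against 8, 29 and 14 counts in WT 1, 2 and 3, and so did not separate by group (log2 fold change 0.24, SE 0.52, adjusted p = 0.914 by edgeR). Exons of Ms4a6c, Cx3cr1, F13a1 and Csf1r overlap a gene on the other strand, and without a stated strand setting their reads cannot be told apart. These partners were sparse where the table holds them, with 191 counts in all 6 libraries for Hmgxb3 beside Csf1r, 2 for BE692007 beside Ms4a6c and 0 for Gm33858 beside Cx3cr1; Gm30489 beside F13a1 was not analysed here.

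Promoter sequences from RefSeq (GRCm38.p6, 250 bases before to 50 after each start) were matched for 5 of the 6 genes, at 6 start sites. They were searched for GAGGAA, a core of sites bound by the myeloid factor PU.1, on both strands (TTCCTC on the other), and 28.3% of all 32851 promoters held it. Both promoters of F13a1 held it and the other 4 did not. Those of Ms4a6c, the gene whose groups separated, and of the downstream start of F13a1, which held 1 match, are shown with matches in capitals. The upstream promoter of F13a1, not shown, held 2 matches.
Ms4a6c, chr19:11469118-11469417, plus strand: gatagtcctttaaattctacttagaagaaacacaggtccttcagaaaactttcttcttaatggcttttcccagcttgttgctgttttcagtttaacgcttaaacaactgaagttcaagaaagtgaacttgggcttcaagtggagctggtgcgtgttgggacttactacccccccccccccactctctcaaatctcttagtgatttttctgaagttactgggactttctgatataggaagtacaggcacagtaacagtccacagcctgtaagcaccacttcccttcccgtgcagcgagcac
F13a1, chr13:37049164-37049463, minus strand: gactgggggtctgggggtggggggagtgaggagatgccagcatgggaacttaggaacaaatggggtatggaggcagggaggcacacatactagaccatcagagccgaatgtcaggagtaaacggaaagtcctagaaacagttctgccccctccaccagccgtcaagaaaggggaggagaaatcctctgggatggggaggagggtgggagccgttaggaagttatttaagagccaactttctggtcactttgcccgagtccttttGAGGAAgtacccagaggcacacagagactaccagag
A match describes these letters only, and its absence draws nothing about the factor.

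Csf1r (ENSMUSG00000024621, chromosome 18) differed between the groups by less than the spread of its libraries. It had 1260, 1377 and 1560 counts in KO 1, 2 and 3, against 1602, 1811 and 1254 counts in WT 1, 2 and 3. In CPM this was 170, 203 and 174 in the KO-labelled libraries, against 197, 185 and 169 in the WT-labelled ones. KO 2 was the highest and WT 3 the lowest library, and the groups were interleaved. The means were 182 ± 17.8 CPM in the KO-labelled and 184 ± 13.8 CPM in the WT-labelled libraries (SD, n = 3 each; log2 fold change -0.01, SE 0.09, adjusted p = 0.974 by edgeR). Its 95% interval, -0.21 to 0.18, was much narrower than those of the sparse genes.

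Lgals3 (ENSMUSG00000050335, chromosome 14, 47367751 to 47386160, plus strand, GRCm38) was the most abundant of the 6 and, with all libraries in the fit, the only one with a log2 fold change above 0. It had 9025, 8863 and 10725 counts in KO 1, 2 and 3, against 8842, 11749 and 7232 counts in WT 1, 2 and 3. In CPM it stood at 1216, 1303 and 1197 in the KO-labelled libraries, against 1085, 1201 and 975 in the WT-labelled ones. WT 2 lay just above KO 3, and otherwise the KO-labelled libraries were higher. The log2 fold change was 0.19 (SE 0.08, 95% interval 0.02 to 0.36, adjusted p = 0.380 by edgeR), and 0.09 when libraries were scaled to total counts alone. The SD between WT-labelled libraries was 9.87 times that of counting alone, and that between KO-labelled libraries 4.45 times, so counting error was a small part of its spread.

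KO 1 was the lowest library for Ccr2, F13a1, Cx3cr1 and Ms4a6c, but not for Csf1r or Lgals3. Together these 4 genes summed to 6.20, 12.8 and 11.6 CPM in KO 1, 2 and 3, against 12.6, 17.4 and 14.0 CPM in WT 1, 2 and 3. KO 2 therefore lay just above WT 1, and WT 2 was the highest library. The sums rested on 46, 87 and 104 counts in the KO-labelled and 103, 170 and 104 counts in the WT-labelled libraries.

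**Figure D3:**
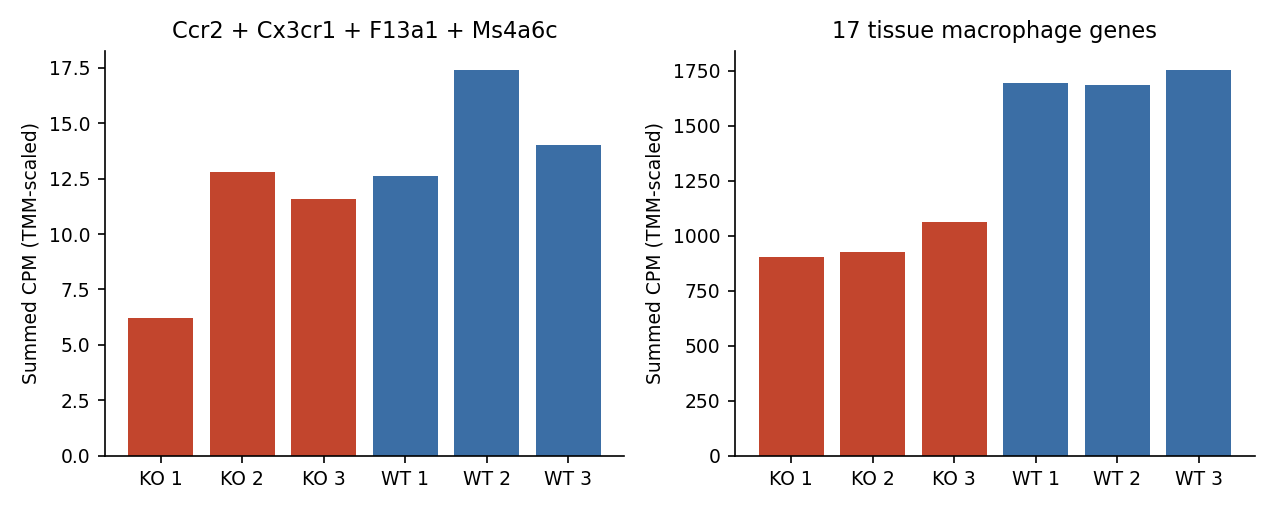
Summed CPM (linear axis from 0) per library of Ccr2, Cx3cr1, F13a1 and Ms4a6c, left panel, and of 17 tissue macrophage genes, right panel, with KO-labelled libraries in red left of WT-labelled ones in blue. The 4 genes give 6.20 to 12.8 CPM in the KO-labelled and 12.6 to 17.4 CPM in the WT-labelled libraries, and the macrophage genes 902 to 1064 CPM and 1683 to 1753 CPM.

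Markers of tissue macrophages held calls, unlike the 6 genes. All 17 listed genes had counts; their sum was 902 to 1064 CPM in the KO-labelled and 1683 to 1753 CPM in the WT-labelled libraries. Of 16 tested, 13 fell and 0 rose (median log2 fold change -1.06), while 0.789% of all tested genes fell. The 95% intervals of the sparse Ccr2, Cx3cr1, F13a1 and Ms4a6c, at 33 to 159 counts per group, contain this median. Those of Ccr2, Cx3cr1 and F13a1 also contain 0, so they do not tell 0 from the median. The intervals of Csf1r and Lgals3 do not contain the median. The part of tissue macrophages in the lower values of Ms4a6c and Ccr2 was not tested. Of the 6 platelet genes 3 fell (2 without KO 2, KO 3 or WT 2 and 1 without WT 1) and 0 rose, and their sum was 62.4 to 98.0 CPM in the KO-labelled and 139 to 160 CPM in the WT-labelled libraries. Of the 13 neutrophil genes 2 rose and 0 fell, while 0.24% of all tested genes rose. The number higher was 1 with upper-quartile or total-count scaling or without KO 1, KO 2, WT 1 or WT 3. It was at most 3 without another library, and 4 with no filter. The list had a sum of 327400 to 349300 CPM in the KO-labelled and 286600 to 308000 CPM in the WT-labelled libraries. Of 9 B and plasma cell genes 3 rose, Igkc, Igha and Jchain. The number was 1 by limma-voom, 2 without KO 2, and 0 by DESeq2 or without any one WT-labelled library. In the same list 4 genes lay below 0, among them Cd79b (-0.76) and Vpreb3 (-1.41) with groups that did not overlap. The list median ran from -0.394 to 0.274 without 1 library. Its sum was 515, 1246 and 473 CPM in KO 1, 2 and 3 and 256 to 323 CPM in the WT-labelled libraries. Of 5 tested eosinophil and basophil genes 1 fell, against 0 without any one library other than KO 3 and 2 by DESeq2 or with no filter. None of 6 dendritic cell, 3 T and NK cell or 7 erythroid genes was called by edgeR after the filter on low counts. At an unadjusted p under 0.05 these last 3 lists held 3, 2 and 0 genes, beside 11.4% of all tested genes. DESeq2 called 1 dendritic cell gene lower. With no filter, edgeR called 1 dendritic cell gene, 1 B and plasma cell gene and 4 platelet genes lower.

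Other genes listed for the monocyte subsets gave no call either. Which cells, neutrophils included, gave their counts was not tested, so these values do not measure the number of monocytes. Of 13 further classical monocyte genes 9 were tested and none was called, with 6 below 0, a median log2 fold change of -0.23 and a range of -1.05 to 0.28. Of these 9, 5 had an unadjusted p under 0.05, beside 11.4% of all tested genes, and DESeq2 called 1 lower and 1 higher. Ly6c2, which encodes the Ly6C antigen of classical monocytes and has a near-identical neighbour in Ly6c1, was at 1349, 1474 and 1486 CPM in KO 1, 2 and 3, against 1353, 1499 and 1278 CPM in WT 1, 2 and 3. Its groups overlapped (log2 fold change 0.06, SE 0.08, adjusted p = 0.836 by edgeR). Mpeg1, which encodes the pore-forming protein perforin-2, stood at -0.23 (adjusted p = 0.390) and Emb, which encodes embigin, at 0.28 (adjusted p = 0.102, and 0.0134 by DESeq2). Beside Mpeg1 and Emb, the listed genes with an unadjusted p under 0.05 were Crip1, Klf4 and Ctss, named after their values were seen. All 3 stood lower in the KO-labelled libraries, with groups that did not overlap. Such a separation in this direction held for 9.32% of all tested genes. Crip1, which encodes a small LIM domain protein, was at 16.7, 18.4 and 18.8 CPM in KO 1, 2 and 3, against 27.5, 26.3 and 27.1 CPM in WT 1, 2 and 3 (log2 fold change -0.58, SE 0.13, adjusted p = 0.0518 by edgeR). It was called lower by DESeq2, with upper-quartile or total-count scaling, with the 5 CPM filter and with no filter. Klf4, which encodes a transcription factor of monocyte differentiation, stood at -1.05 (SE 0.27, adjusted p = 0.0865), and Ctss, which encodes the lysosomal protease cathepsin S, at -0.44 (SE 0.12, adjusted p = 0.104). Both were called lower with total-count scaling and with no filter. Fn1, Ms4a4c, Vcan and Ly86 had too few counts to be tested, with at most 15 in any library.

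Of 12 non-classical monocyte genes 10 were tested and none was called, with 6 below 0, a median of -0.31 and a range of -1.53 to 0.43. Of these 10, 4 had an unadjusted p under 0.05, beside 11.4% of all tested genes, and DESeq2 called none. Nr4a1, which encodes the nuclear receptor that non-classical monocytes need, was at 65.4, 44.4 and 62.2 CPM in KO 1, 2 and 3, against 34.4, 33.9 and 60.8 CPM in WT 1, 2 and 3. WT 3 lay among the KO-labelled libraries (log2 fold change 0.43, SE 0.20, adjusted p = 0.427 by edgeR), and without it the value was 0.75 with an adjusted p of 0.0337. Nr4a1 was also called higher with no filter (adjusted p = 0.0224 by edgeR). The other genes with an unadjusted p under 0.05, named after their values were seen, stood lower in the KO-labelled libraries. Pou2f2, which encodes the transcription factor OCT2 and shares exon sequence with Mir6537, was at 7.82, 6.77 and 9.26 CPM in KO 1, 2 and 3, against 13.5, 13.5 and 14.6 CPM in WT 1, 2 and 3. Its groups did not overlap (log2 fold change -0.79, SE 0.19, adjusted p = 0.0663), and it was called lower with total-count scaling and with no filter. Adgre4, which encodes an adhesion receptor related to F4/80, stood at -1.16 (SE 0.44, adjusted p = 0.312) with groups that did not overlap, and was called lower with no filter. Cd36, which encodes a scavenger receptor, stood at -1.53 (SE 0.54, adjusted p = 0.267), and its groups overlapped. Spn, which encodes the leukocyte sialoglycoprotein CD43, averaged 79.5 ± 2.00 CPM in the KO-labelled and 78.0 ± 0.583 CPM in the WT-labelled libraries (SD, n = 3 each). Ear2, which encodes a ribonuclease with closely similar family members, averaged 114 ± 16.4 CPM in the KO-labelled and 114 ± 5.33 CPM in the WT-labelled libraries (SD, n = 3 each). Both gave values near 0 (0.03 and 0.01) whose sign changed with total-count scaling, and that of Ear2 also with other settings.

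**Figure D4:**
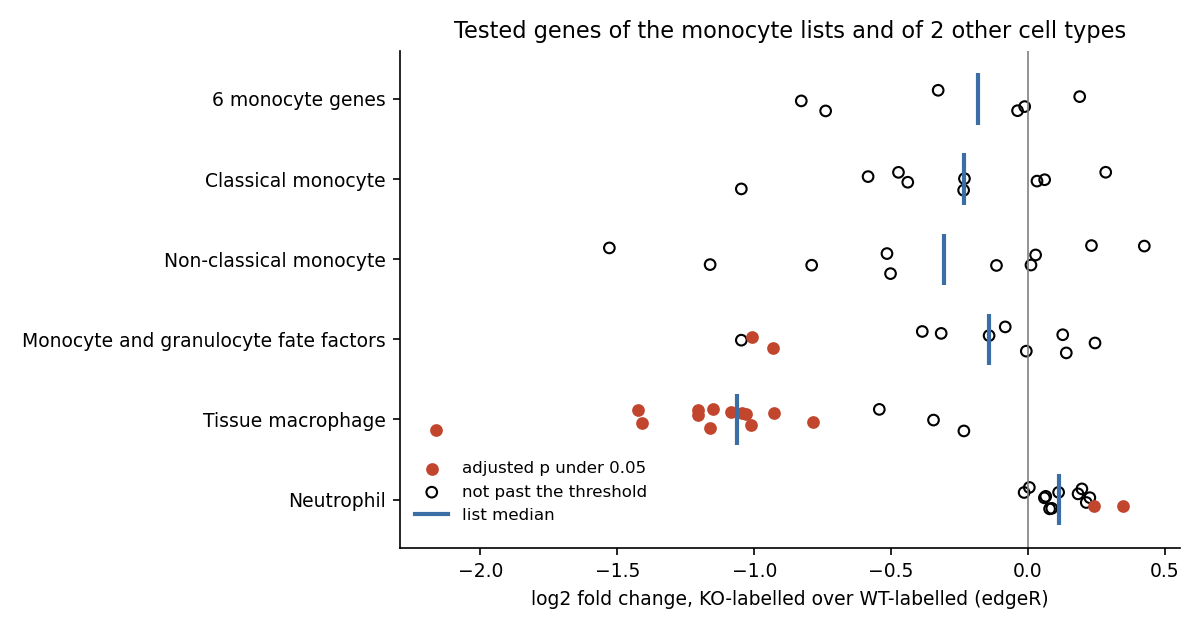
Log2 fold change of KO-labelled over WT-labelled libraries for each tested gene of 6 lists; filled red points passed an adjusted p of 0.05 in edgeR and blue bars are list medians, with heights within a row spread at random. The 6 monocyte genes (median -0.18) and the classical (-0.23) and non-classical (-0.31) lists hold open points only, while 13 of 16 tissue macrophage genes are filled.

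Among the transcription factor genes of monocyte and granulocyte fate, 2 of 11 tested fell and 0 rose, with a median of -0.14. Over all tested genes 0.789% fell. Of these 11, 4 had an unadjusted p under 0.05, beside 11.4% of all tested genes. In 5 the groups did not overlap, all lower in the KO-labelled libraries, beside 9.32% of all tested genes. Klf4, given above, is also in this list. Irf8, which directs progenitors to monocytes and dendritic cells, was at 18.6, 15.6 and 17.9 CPM in KO 1, 2 and 3, against 37.5, 33.1 and 34.4 CPM in WT 1, 2 and 3 (log2 fold change -1.01, SE 0.13, adjusted p = 0.00104 by edgeR). Every KO-labelled library lay below every WT-labelled one. Maf (-0.93, SE 0.12), which encodes a factor of macrophage differentiation, fell as well, and the calls of both genes held in all 14 alternatives. Maf has an overlapping gene on the other strand. Spi1, which encodes PU.1, was at 525, 631 and 582 CPM in KO 1, 2 and 3, against 569, 537 and 472 CPM in WT 1, 2 and 3 (log2 fold change 0.14, SE 0.09, adjusted p = 0.615 by edgeR).

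Of 12 ligands and partners of the 6 gene products, 2 were abundant enough to be tested. Lgals3bp, which encodes a secreted protein that binds galectin-3, fell to 11.1, 19.0 and 16.1 CPM in KO 1, 2 and 3, against 26.1, 29.8 and 29.9 CPM in WT 1, 2 and 3 (log2 fold change -0.90, SE 0.18, adjusted p = 0.0220 by edgeR). The groups did not overlap, but the call ended without KO 1, WT 1, WT 2 or WT 3 (adjusted p 0.0609, 0.0540, 0.139 and 0.0899). Csf1, a ligand of CSF1R, was at 9.84, 7.06 and 13.6 CPM in KO 1, 2 and 3, against 12.0, 7.46 and 17.1 CPM in WT 1, 2 and 3, and its groups overlapped (adjusted p = 0.835 by edgeR). The CCR2 ligand genes Ccl2, Ccl7, Ccl8 and Ccl12, Il34 and the CX3CR1 ligand gene Cx3cl1 had at most 15 counts in any library. F13b and the fibrinogen genes Fga, Fgb and Fgg had none, which allows up to 0.0617 CPM over the 6 libraries together.

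None of 10 genes of CSF1R signalling was called, at a median of -0.02. Of these 10, 3 had an unadjusted p under 0.05 by edgeR, beside 11.4% of all tested genes, and DESeq2 called 0. Tyrobp, an adaptor with an activating motif, was at 2039, 2180 and 2321 CPM in KO 1, 2 and 3, against 1942, 1983 and 1770 CPM in WT 1, 2 and 3; the groups did not overlap (log2 fold change 0.20, SE 0.07, adjusted p = 0.269 by edgeR). None of the 4 other colony-stimulating factor receptor genes was called, nor counted at an unadjusted p under 0.05. Among them Csf2rb, the shared beta chain, was at 0.12 on the log2 scale (adjusted p = 0.707).

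The Ms4a, galectin and chemokine receptor families held 1 call each. Of 5 tested Ms4a relatives Ms4a7, a gene of macrophages, fell to 4.72, 3.82 and 5.80 CPM in KO 1, 2 and 3, against 8.71, 13.1 and 11.2 CPM in WT 1, 2 and 3 (log2 fold change -1.19, SE 0.24, adjusted p = 0.0264 by edgeR). Its groups did not overlap, and the call ended without KO 1, KO 2, WT 2 or WT 3 (0.0772, 0.0919, 0.205 and 0.0755), with limma-voom (0.0533) and with the replicate number as a block (0.0521). Ms4a6d stood at -0.54 (SE 0.39, adjusted p = 0.677). Of 4 tested galectin genes Lgals1 fell to 13.8, 16.5 and 17.0 CPM in KO 1, 2 and 3, against 24.3, 32.1 and 23.7 CPM in WT 1, 2 and 3 (log2 fold change -0.77, SE 0.16, adjusted p = 0.0353 by edgeR). That call ended without any one library (adjusted p 0.0539 to 0.218). Lgals9 stood at 0.27 (SE 0.10, adjusted p = 0.272), and each of its KO-labelled libraries lay above each WT-labelled one. Of 7 tested chemokine receptor relatives Ccr3, the eotaxin receptor of eosinophils, fell (-1.15, SE 0.22, adjusted p = 0.0183). Its call ended without any library other than KO 3 (0.0614 to 0.100). Ccr3 is also the 1 gene called in the eosinophil and basophil list, in which 3 of 5 tested genes lay below 0. The others of that list went both ways. Mcpt8 (-1.79) and Prss34 (-0.70) lay below 0, and Prg2 (0.01) and Siglecf (0.245) above it. Ccr1, another receptor of myeloid cells, stood at 0.12 (SE 0.09, adjusted p = 0.679). None of 3 tested transglutaminase genes was called or reached an unadjusted p under 0.05.

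The genes with the nearest profiles were sought among the 5935 tested genes that averaged 10 CPM or more, by the root mean square difference of log2 CPM over the 6 libraries after centring each gene on its mean. For Ms4a6c these were Lgals3bp (0.117), Ckb (0.126) and Nav1 (0.135), against a spread of 0.464 of Ms4a6c around its own mean. For Lgals3 they were Eid1 (0.017), Ncf4 (0.027) and Timm10b (0.029), and for Csf1r they were Ywhag (0.030), Actr1b (0.032) and Wdr48 (0.035), against own spreads of 0.135 and 0.102. For Cx3cr1 they were Dhx36 (0.092), Scaf8 (0.114) and Mocs2 (0.122), against 0.303. Ccr2 and F13a1 had no close match among these candidates. The nearest were Clns1a (0.384), Igsf8 (0.386) and Vps51 (0.404) for Ccr2, with an own spread of 0.737. For F13a1 they were Isg20 (0.376), Ptpn23 (0.379) and Pik3r2 (0.399), with an own spread of 0.662. Genes as sparse as Ccr2 and F13a1 were not candidates, so a match among them could not be found. With 6 libraries and 5935 candidates, these matches are given as a description only.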

How the data were processed

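The authors deposited whole-number counts per Ensembl gene with no scaling. The submitters' processing notes name RSEM 1.2.3, DESeq2 and mm10 but not what each was used for, and no aligner, annotation, strand setting or filter is stated. Libraries were made with the QuantSeq kit, per the labels' protocols. Columns were assigned to samples by name; symbols and exon overlaps came from GENCODE vM21 (GRCm38), with 51596 of 51789 identifiers matched. Totals per library were 7018388 to 9664381 counts. Replicates differed by more than sampling noise (chi-square per degree of freedom 4.12 to 6.79).

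KO-labelled and WT-labelled libraries were compared with edgeR 4.0.16 in R 4.3.3 (glmQLFit, glmQLFTest, group as the one term), with TMM factors, filterByExpr (minimum count 10, total 15) and Benjamini-Hochberg adjustment over 10397 genes. The SE is the size of the log2 fold change divided by the square root of F, and its 95% interval uses the t quantile of the test. Intervals of counts are exact Poisson and cover counting error only. The procedure was tested on simulated counts. Alternatives were DESeq2 1.42.0, limma-voom (limma 3.58.1), other scalings and filters, a replicate block and leaving out each library.

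The members, the 18 other lists and the rule for naming genes (members, list genes that were called or among the 3 most abundant of their list, nearest profiles and Snph) were chosen with earlier results of these data known. Rule genes are printed where they bear on the members or on a list count given above. Ly6g, Ms4a6b, Crip1, Klf4, Ctss, Pou2f2, Adgre4, Cd36 and the sparse genes too low to test were added after their values were seen. So were Mcpt8, Siglecf, Cd79b and Vpreb3. 1 gene was removed from its list and is not reported here.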

Additional observations from a re-analysis of the deposited data

How the results depend on the processing

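Over 14 alternatives the 6 monocyte genes gave 81 values, of which 0 passed the threshold and 76 kept their direction; Ccr2, Cx3cr1 and F13a1 were below a filter of 5 CPM in 3 libraries. Without 1 library the log2 fold change of Csf1r ran from -0.10 to 0.041 and that of F13a1 from -0.37 to 0.39, so both changed sign, while Ccr2 ran from -1.32 to -0.32, Cx3cr1 from -0.50 to -0.09, Ms4a6c from -1.07 to -0.67 and Lgals3 from 0.12 to 0.27. Signs also changed for Ms4a6b (lowest -0.28, highest 0.70 without 1 library), Csf1 (-0.51 to 0.087) and, with total counts only, Ly6c2 (-0.042) and Spn (-0.076); Ear2 changed sign with total counts only (-0.094), upper-quartile factors (-0.012), the 5 CPM filter (-0.008) and without 1 library (-0.052 to 0.127); the cause was not tested. Scaling to total counts moved the median of all genes to -0.10, called 144 genes lower and 88.9% of calls lower, against 76.6%; it also called 3 classical and 1 non-classical monocyte genes lower, with medians of -0.34 and -0.41. With no filter 173 genes were lower and 114 higher, 3 classical and 2 non-classical genes lower and 1 non-classical gene higher, and the non-classical median was -0.19. With the 5 CPM filter that median was -0.072 and 1 classical gene was lower, as with upper-quartile factors. DESeq2 called 60 genes higher, and 1 classical gene lower and 1 higher. Without 1 library, 35 to 68 genes were lower and 11 to 29 higher, 0 to 1 non-classical genes higher, and the non-classical median was -0.38 to -0.14. Replicate numbers are shared between groups, but deviations of same-numbered libraries correlated at -0.03, 0.00 and -0.03 across 5935 genes, so the numbers were not taken to pair samples; with the replicate block 92 genes were called in place of 107, 84 of them shared, and 0 of the 6 monocyte genes.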
